A study of Rattus norvegicus with 21 samples.

Results

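Insulin-like growth factor binding proteins (IGFBPs) were followed in 2 rat bladder carcinoma lines treated with the growth factor FGF1. The genes were Igfbp2, Igfbp3, Igfbp4, Igfbp5, Igfbp6 and Igfbp7. All probe sets whose single gene symbol in the platform annotation was one of these 6 genes were taken, which gave 10 of the 15866 probe sets tested, for 6 of 10411 genes with a symbol. Igfbp5 had 3 probe sets, Igfbp3 and Igfbp6 had 2 each, and Igfbp2, Igfbp4 and Igfbp7 had 1 each. The family was chosen by its measured difference between the lines, since the level of Igfbp5 in both lines was already known. For that reason the difference between the lines is given for the members as a description, with no test. The differences between times are tested.

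NBTII is an epithelial cell line from a rat bladder carcinoma, and NBTII-FGFR1 is the same line transfected with FGFR1, a receptor for FGF1. The promoter that drives the transfected receptor, and whether the transfected line is 1 clone, are not given in the sources used here. Cells of both lines were given FGF1 at 20 ng/ml together with heparin, and total RNA was taken at 0, 0.5, 2, 6, 24 and 48 h, with 0 h as the control cells. NBTII-FGFR1 gave 11 arrays and NBTII gave 10, 1 sample each. There were 2 arrays in 9 of the 12 groups of line and time, and 1 array at 0.5 h in NBTII-FGFR1 and at 0 and 0.5 h in NBTII. Every array after 0 h had FGF1 and heparin, so an effect of FGF1 cannot be told apart from one of heparin, time in culture or handling. Nothing in the labels tells if 2 replicates were grown separately, and p-values may then measure only technical spread. The values are log2 signal intensities, on which 1 unit is a doubling. They are read here within a probe set and never between probe sets.

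IGFBPs are secreted proteins that bind the insulin-like growth factors IGF-I and IGF-II and set how much of them reaches the receptor Igf1r. Proteases such as pregnancy-associated plasma protein A and several matrix metalloproteinases cut IGFBPs and free the bound factor. Igfbp5 also binds extracellular matrix and heparin, and Igfbp7 is a relative that binds IGFs weakly and is found in the matrix. In rat, Igfbp2 and Igfbp5 are neighbours that point towards each other. In the RefSeq annotation of the rat build GRCr8, Igfbp2 lay on the plus strand of chromosome 9 at chr9:81864811-81892179 and Igfbp5 on the minus strand at chr9:81901605-81914187, with 9425 bases and 0 annotated genes between them. Igfbp7 was on the plus strand at chr14:31091681-31151623, Igfbp3 on the minus strand at chr14:86270208-86277944, Igfbp4 on the plus strand at chr10:84491471-84503487 and Igfbp6 on the plus strand at chr7:135154919-135159550.

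The promoter windows of Igfbp5, of its neighbour Igfbp2 and of Igfbp7 are shown. Igfbp5 had the largest difference between the lines, Igfbp2 is its neighbour, and Igfbp7 was the only member whose difference from 0 h passed the test. Each window runs 5′ to 3′ on the gene's own strand and has 300 bases. Those of Igfbp5 and Igfbp2 run from 250 bases before the gene start given above to 50 bases after it. The Igfbp7 window, from 31091486 to 31091785, is not placed that way around the gene start given above, 31091681. The reason was not examined. Capitals mark the GC box GGGCGG, read on both strands, a motif bound by Sp-family factors.
Igfbp5, chr9:81914138-81914437, minus strand: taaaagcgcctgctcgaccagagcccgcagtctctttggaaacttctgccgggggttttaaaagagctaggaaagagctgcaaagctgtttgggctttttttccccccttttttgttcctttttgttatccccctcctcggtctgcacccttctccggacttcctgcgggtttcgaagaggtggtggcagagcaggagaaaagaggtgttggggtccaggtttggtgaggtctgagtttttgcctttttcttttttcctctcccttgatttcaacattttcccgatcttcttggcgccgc
Igfbp2, chr9:81864561-81864860, plus strand: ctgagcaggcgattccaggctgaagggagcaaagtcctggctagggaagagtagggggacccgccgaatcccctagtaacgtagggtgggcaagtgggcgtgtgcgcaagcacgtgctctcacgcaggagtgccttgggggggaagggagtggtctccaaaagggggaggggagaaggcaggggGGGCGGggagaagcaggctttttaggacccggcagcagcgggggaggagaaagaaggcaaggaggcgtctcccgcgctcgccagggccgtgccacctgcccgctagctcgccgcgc
Igfbp7, chr14:31091486-31091785, plus strand: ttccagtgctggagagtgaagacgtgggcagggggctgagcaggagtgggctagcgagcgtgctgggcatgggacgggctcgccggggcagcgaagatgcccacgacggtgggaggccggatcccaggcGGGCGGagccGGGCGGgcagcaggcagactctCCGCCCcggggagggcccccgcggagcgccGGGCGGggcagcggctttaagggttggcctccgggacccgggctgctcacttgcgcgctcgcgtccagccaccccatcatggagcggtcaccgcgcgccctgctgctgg

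The Igfbp5 window was 50.7% G and C, against a median of 51.7% over the 33469 rat promoters of the same length. The Igfbp2 and Igfbp7 windows were richer, at 66.7% and 74.3%. The GC box occurred 1 time in the Igfbp2 window, 4 times in that of Igfbp7 and 0 times in that of Igfbp5. It occurred in 2 of the 6 members' windows and in 33.1% of all windows. The E-box CANNTG was found in 5 of the 6 windows, all but that of Igfbp5, against 72.1% of all windows. The AP-1 motif TGANTCA occurred in 0 of 6 windows (7.33% of all) and the EGR motif GCGNGGGCG in 0 of 6 (4.98% of all). The ETS core CCGGAA was in the Igfbp3 window alone (15.0% of all), and the TATA box TATAAA in the Igfbp4 window alone (14.2% of all). All motifs were searched on both strands. GCGNGGGCG can overlap GGGCGG, and the other motifs were counted without regard to overlap. A match of letters is no evidence of binding.

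Array medians lay between 6.13 and 6.21, and replicate arrays had a Pearson correlation of 0.988 to 0.997 over all probe sets. Markers of epithelium were present: 11 of 12 were measured, their mean per array was 7.93 to 9.30 in NBTII-FGFR1 and 8.08 to 9.32 in NBTII, and of these Krt19 was below the arrays' lower quartile. Endothelial markers (5 of 7 measured) averaged 3.62 to 3.89 in NBTII-FGFR1 and 3.63 to 3.95 in NBTII, with all 5 below the lower quartile. Fibroblast markers (8 of 8 measured, 6 below the lower quartile) averaged 4.02 to 4.25 in NBTII-FGFR1 and 4.12 to 4.28 in NBTII. Leukocyte markers (8 of 9 measured, with Ptprc and Cd3e below the lower quartile) averaged 4.87 to 5.15 in NBTII-FGFR1 and 4.93 to 5.11 in NBTII. The poly-A spike-in probe sets averaged 6.49 to 7.07 on the 3 arrays of 0 h, against 5.58 to 6.02 on the 18 later arrays.

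The transfected gene was read as a check of the labels. Its probe set 1387498_a_at, for Fgfr1, in NBTII-FGFR1 read 3.57 and 5.92 at 0 h, 7.50 at 0.5 h, 7.58 and 6.67 at 2 h, 5.82 and 5.37 at 6 h, 4.56 and 6.14 at 24 h, and 7.44 and 7.20 at 48 h. In NBTII it read 3.58 to 4.05 over all 10 arrays. The library labelled replicate 1 of NBTII-FGFR1 at 0 h, at 3.57, therefore lay below every NBTII array, while the other 10 NBTII-FGFR1 arrays lay above all of them. Over all probe sets that library correlated with 0 h replicate 2 of its line at 0.995. Its correlation with the NBTII array of 0 h is not given here, so this value does not place it in either line. Its Igfbp7 signal was 8.30, with 8.07 in 0 h replicate 2 and 9.82 in NBTII at 0 h. Its Igfbp5 1370960_at signal was 7.51, with 4.39 and 8.63 in those arrays. A second Fgfr1 probe set, 1372447_at, read 4.48 to 4.82 in NBTII-FGFR1 and 4.5 to 4.88 in NBTII and did not separate the lines; the sources used here do not place its target inside or outside the transfected sequence. The 2 arrays of NBTII-FGFR1 at 2 h had the lowest replicate correlation, 0.988, and replicate 1 of that group is treated with the 0 h library as standing apart. The correlation does not tell which of the 2 arrays is apart, and the choice of replicate 1 was not tested. The design text of the series gives no duplicate for control cells, while 2 NBTII-FGFR1 arrays carry 0 h in their titles. Whether the label of the 0 h library is right was not tested. The label was kept, so every NBTII-FGFR1 difference from 0 h uses this array as one of its 2 controls.

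Igfbp5 was the member that differed most between the lines. On its probe set 1370960_at, NBTII-FGFR1 read 7.51 and 4.39 at 0 h, 5.08 at 0.5 h, 4.65 and 5.49 at 2 h, 4.30 and 4.24 at 6 h, 4.04 and 4.54 at 24 h, and 4.53 and 4.36 at 48 h. NBTII read 8.63 at 0 h, 8.64 at 0.5 h, 7.70 and 8.88 at 2 h, 7.41 and 7.42 at 6 h, 8.65 and 5.72 at 24 h, and 9.89 and 7.87 at 48 h. Apart from the library labelled replicate 1 of NBTII-FGFR1 at 0 h, every NBTII-FGFR1 array was below every NBTII array. That library, at 7.51, lay inside the NBTII range. The NBTII-FGFR1 signal was below the array's lower quartile on 5 of 11 arrays, and the NBTII signal on 0 of 10.

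**Figure D1:**
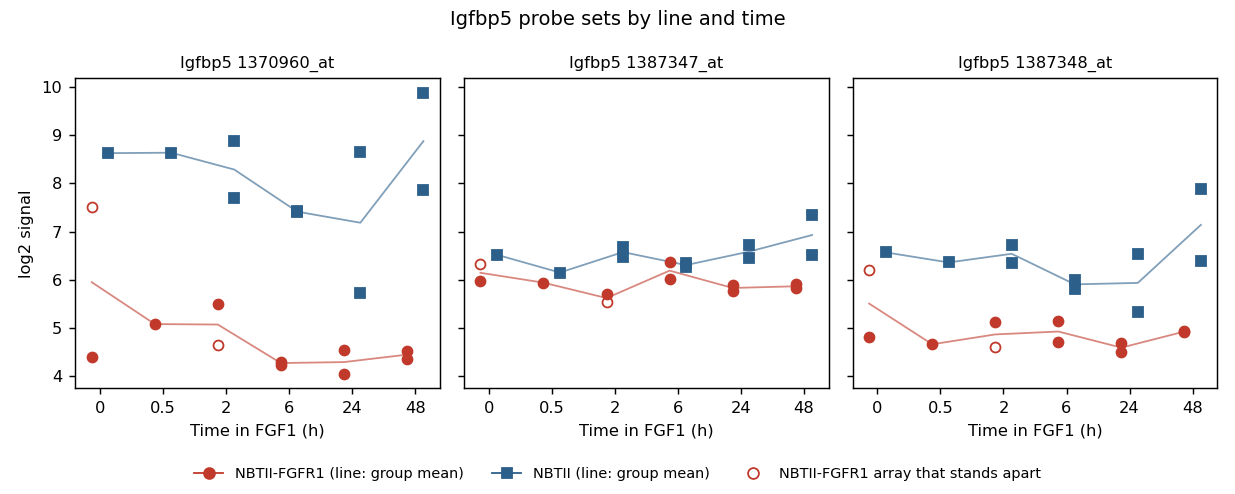
Log2 signal of the 3 Igfbp5 probe sets (vertical axis) at each time in FGF1 in hours (horizontal axis, evenly spaced times). Points are single arrays, lines join group means, and open circles are the 2 NBTII-FGFR1 arrays that stand apart. On 1370960_at the NBTII-FGFR1 arrays of 2 to 48 h sit between 4.04 and 5.49 and the NBTII arrays between 5.72 and 9.89.

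Over the 4 times from 2 to 48 h, at which both lines had 2 arrays, Igfbp5 1370960_at averaged 4.52 in NBTII-FGFR1 and 7.94 in NBTII. The difference was -3.42 ± 0.46 (SE of the fit over all arrays), or 10.7-fold lower in NBTII-FGFR1. Without both arrays that stand apart it was -3.32, and without NBTII 24 h replicate 2, the lowest NBTII array, -3.79. In bulk RNA, fewer cells that express Igfbp5 and less Igfbp5 RNA per cell cannot be told apart. The other 2 probe sets of Igfbp5 gave the same direction. Igfbp5 1387348_at averaged 4.82 in NBTII-FGFR1 and 6.38 in NBTII, a difference of -1.55 ± 0.24, and 1387347_at averaged 5.88 and 6.60 in those lines, a difference of -0.72 ± 0.11. These 2 probe sets share an accession in the annotation. The first probe set correlated with 1387348_at at 0.95 and with 1387347_at at 0.79 over the 21 arrays, which share the same split by line.

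The sizes differed between the 3 probe sets. On 1387348_at, NBTII-FGFR1 read 6.2 and 4.81 at 0 h, 4.66 at 0.5 h, and 4.49 to 5.14 from 2 to 48 h. On the same probe set NBTII read 6.57 at 0 h, 6.36 at 0.5 h, and 5.33 to 7.88 from 2 to 48 h. The library labelled replicate 1 of NBTII-FGFR1 at 0 h was again the highest of its line. On 1387347_at, NBTII-FGFR1 read 6.32 and 5.97 at 0 h, 5.94 at 0.5 h and 5.54 to 6.37 from 2 to 48 h. On 1387347_at NBTII read 6.52 at 0 h, 6.15 at 0.5 h and 6.27 to 7.34 from 2 to 48 h, so the lines overlapped. From 2 to 48 h, 2 of the 10 probe sets had all 8 NBTII-FGFR1 arrays below all 8 NBTII arrays, and both belonged to Igfbp5. Of all probe sets tested 0.441% did so, and 0.725% did not overlap in either direction.

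The difference in Igfbp5 1370960_at was present at every time. NBTII-FGFR1 minus NBTII was -2.68 at 0 h, -3.55 at 0.5 h, -3.22 at 2 h, -3.14 at 6 h, -2.89 at 24 h and -4.44 at 48 h. The 0 h and 0.5 h values rest on 1 NBTII array each, and that at 0 h includes the library that stands apart. Without that library the 0 h difference was -4.24, from 1 array of each line, and was chosen for display after the values were seen. Whether the lines' change between 2 and 48 h differed was tested as an interaction. In it 0 of 10 members passed, 0 of 10 had an unadjusted p under 0.05, and 1.8% of all probe sets passed in limma with Benjamini-Hochberg adjustment.

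The other members differed less between the lines. Igfbp7 averaged 8.98 in NBTII-FGFR1 and 9.32 in NBTII from 2 to 48 h, a difference of -0.34 ± 0.13, or -0.26 without both arrays that stand apart. Igfbp6, an IGFBP that prefers IGF-II, differed by -0.22 ± 0.07 on 1372168_s_at and by -0.09 ± 0.08 on 1387625_at. Igfbp2, the neighbour of Igfbp5, differed by -0.20 ± 0.07. Igfbp3, the main carrier of IGFs in blood, differed by 0.04 ± 0.07 and -0.03 ± 0.07 on its 2 probe sets. Igfbp4, a substrate of pregnancy-associated plasma protein A, differed by 0.04 ± 0.06. The intervals of the last 2 genes ran from -0.11 to 0.19 and from -0.17 to 0.11 for Igfbp3, and from -0.09 to 0.16 for Igfbp4 (95%, log2). The median difference of the 10 probe sets was -0.21, and that of all probe sets -0.03.

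**Figure D2:**
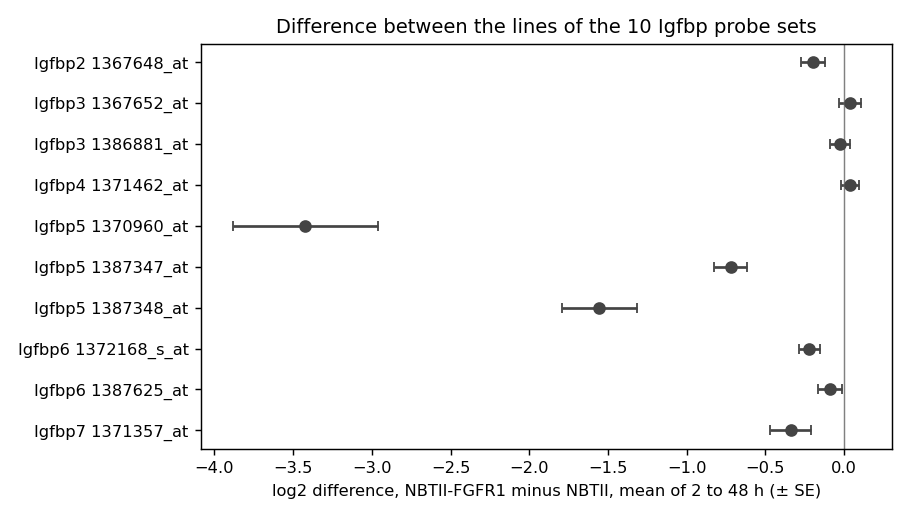
Difference between the lines for each of the 10 Igfbp probe sets (rows), as log2 signal in NBTII-FGFR1 minus NBTII averaged over 2 to 48 h (horizontal axis), with its SE. The 3 Igfbp5 probe sets lie at -3.42, -1.55 and -0.72, and the other 7 between -0.34 and 0.04.

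Igfbp5 was also the least repeatable member. The SD between arrays of the same group was 1.17 for 1370960_at, and 0 of the 15866 probe sets tested had a larger one. The median of all probe sets was 0.143. It was 0.591 for 1387348_at, at percentile 99.7, and 0.247 for 1387347_at, at percentile 89.9. Igfbp7 followed at 0.315 (percentile 96.2), and the other 6 probe sets lay between percentiles 15.8 and 64.5. The widest pairs for 1370960_at were NBTII-FGFR1 0 h, at 7.51 and 4.39, NBTII 24 h, at 8.65 and 5.72, and NBTII 48 h, at 9.89 and 7.87. The pair at NBTII 6 h, at 7.41 and 7.42, was close. Fgfr1 1387498_a_at read 4.05 in NBTII 24 h replicate 2, the lower array for Igfbp5, and 3.86 in replicate 1.

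Igfbp7 was the only member called higher than at 0 h in NBTII-FGFR1, at 2 and 6 h but not at 24 or 48 h. It read 8.30 and 8.07 at 0 h, 9.11 at 0.5 h, 8.82 and 9.42 at 2 h, 9.29 and 9.06 at 6 h, 9.07 and 8.80 at 24 h, and 8.72 and 8.62 at 48 h. Both arrays of 0 h were the lowest of the line. In NBTII Igfbp7 read 9.82 at 0 h, 8.59 at 0.5 h, 9.30 and 9.78 at 2 h, 9.01 and 9.88 at 6 h, 9.0 and 9.22 at 24 h, and 9.39 and 8.94 at 48 h. There the 0 h array was next to the highest and the 0.5 h array the lowest.

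In NBTII-FGFR1 at 2 h against 0 h, 1 of the 10 probe sets was called higher and 0 lower at an adjusted p under 0.05 in limma, and of all probe sets 5.27% were called higher and 9.35% in either direction. It was Igfbp7, with a difference of 0.94 ± 0.26 (adjusted p = 0.0363). At 6 h against 0 h, 1 was again called higher and 0 lower, against 9.38% of all probe sets called higher and 21.3% in either direction, and Igfbp7 differed by 0.99 ± 0.26 (limma, adjusted p = 0.0133). The share of members called was thus near the background at both times. At 24 h Igfbp7 differed by 0.75 ± 0.26 (adjusted p = 0.113) and at 48 h by 0.49 ± 0.26 (limma, adjusted p = 0.231), and neither passed. Without the library labelled replicate 1 of NBTII-FGFR1 at 0 h these were 0.86 (adjusted p = 0.239) and 0.60 (limma, adjusted p = 0.289). These comparisons share the 2 arrays of 0 h, and the spike-in probe sets that were higher on the 0 h arrays move with them. The part of the spike-in difference in the result was not tested.

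The 2 h call did not hold without single arrays. Without the library labelled replicate 1 of NBTII-FGFR1 at 0 h the difference was 1.06 (adjusted p = 0.109), without 0 h replicate 2 it was 0.82 (limma, adjusted p = 0.185), and without 2 h replicate 2 it was 0.64 (limma, adjusted p = 0.212). Without either array of 48 h in that line the adjusted p was 0.0523. With both arrays that stand apart left out the difference was 1.36, and without 2 h replicate 1 alone it was 1.24. At 6 h the difference was 0.88 without 0 h replicate 2 (adjusted p = 0.0945) and 0.88 without 6 h replicate 1 (limma, adjusted p = 0.0816), and it passed in the other 16 fits that left out 1 array.

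In NBTII no member was called at any time. Against 0 h, 0 of 10 passed at 2 h (2.94% of all probe sets called in limma), 0 at 6 h (5.9%), 0 at 24 h (0.939%) and 0 at 48 h (0.908%). Between 48 and 2 h 0 of 10 passed, against 5.02% of all probe sets. Unadjusted p-values under 0.05 numbered 0, 0, 1, 0 and 0 in those comparisons. The 1 was Igfbp7 at 24 h, with a difference of -0.72 ± 0.32 from the single 0 h array (limma, adjusted p = 0.428). Whether the change from 0 h in Igfbp7 differed between the lines was tested in comparisons added after the values were seen. The differences were 1.22 at 2 h, 1.38 at 6 h, 1.46 at 24 h and 1.14 at 48 h, each ± 0.41, with adjusted p-values of 0.472, 0.173, 0.314 and 0.192 in limma, and none passed. Of all probe sets 0%, 0.403%, 0.0063% and 1.13% passed at those times.

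**Figure D3:**
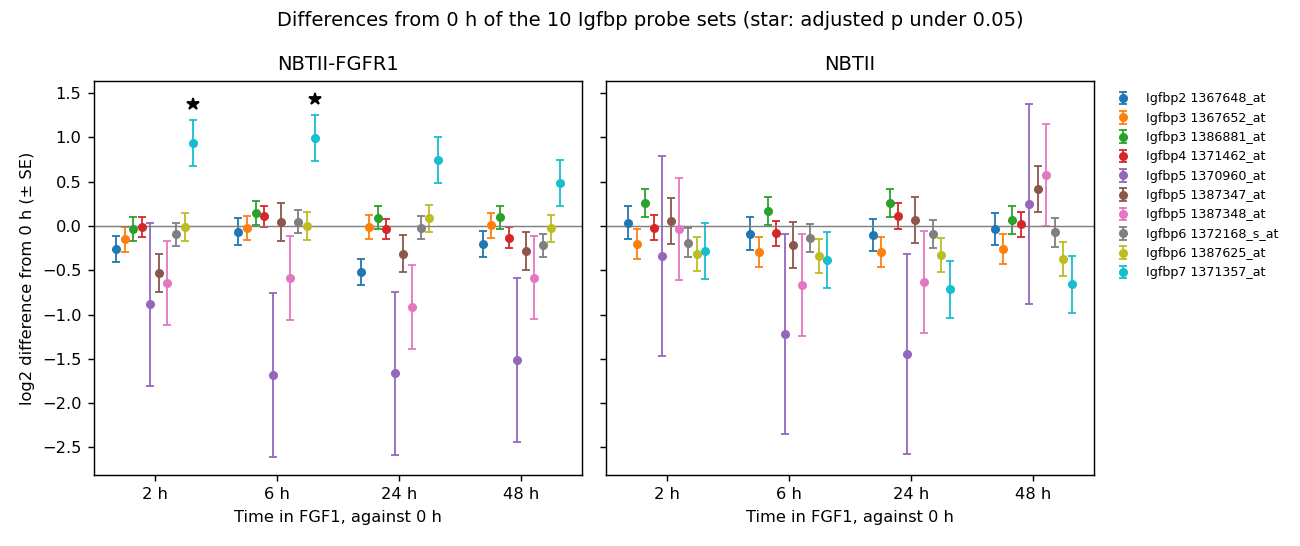
Difference of each of the 10 Igfbp probe sets from 0 h (vertical axis, log2, ± SE) at 2, 6, 24 and 48 h, with NBTII-FGFR1 on the left and NBTII on the right. Stars mark adjusted p-values under 0.05, which Igfbp7 had at 2 and 6 h in NBTII-FGFR1, with differences of 0.94 and 0.99.

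Igfbp5 gave large differences from 0 h that did not pass. In NBTII-FGFR1, 1370960_at differed from 0 h by -0.88 at 2 h, -1.68 at 6 h, -1.66 at 24 h and -1.51 at 48 h, each ± 0.92, with adjusted p-values of 0.617, 0.232, 0.342 and 0.304 in limma. Without the library labelled replicate 1 of NBTII-FGFR1 at 0 h these were 0.68, -0.12, -0.10 and 0.05. Without 0 h replicate 2 in its place, the difference was -3.24 at 6 h (adjusted p = 0.0297) and -3.07 at 48 h (limma, adjusted p = 0.0368), and both passed. The call on Igfbp5 over time in this line was thus set by which 0 h array was kept. In NBTII the difference at 24 h was -1.45 ± 1.13, and 0.02 without NBTII 24 h replicate 2.

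Igfbp2, which carries an integrin-binding sequence beside its IGF-binding domains, came closest to a call in the lower direction. In NBTII-FGFR1 it read 5.20 and 5.19 at 0 h, 5.07 at 0.5 h, 4.91 and 4.96 at 2 h, 5.38 and 4.89 at 6 h, 4.70 and 4.66 at 24 h, and 5.05 and 4.94 at 48 h. Both 24 h arrays were the lowest of the 21. Its difference from 0 h at 24 h was -0.52 ± 0.15 (limma, adjusted p = 0.0545), at a time when 6.3% of all probe sets and 0 of the 10 members passed. Without the library labelled replicate 1 of NBTII-FGFR1 at 0 h it was -0.51 (adjusted p = 0.228), and without 0 h replicate 2 it was -0.52 (limma, adjusted p = 0.174). It passed when an array outside the comparison was left out, either one of 2 h (adjusted p = 0.0491) or either one of 6 h in that line (limma, adjusted p = 0.0229). In NBTII it read 4.92 to 5.34 over all 10 arrays. At 48 h against 0 h in NBTII-FGFR1, 0 of 10 members passed and 21.4% of all probe sets did, and at 48 h against 2 h 0 of 10 and 17.7%. Unadjusted p-values under 0.05 in NBTII-FGFR1 numbered 2 at 2 h, 1 at 6 h, 2 at 24 h, 0 at 48 h and 0 at 48 h against 2 h.

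The remaining members varied little. Igfbp3 1367652_at read 5.05 to 5.47 in NBTII-FGFR1 and 5.07 to 5.47 in NBTII. The second Igfbp3 probe set, 1386881_at, read 3.74 to 4.29 in NBTII-FGFR1 and 3.95 to 4.36 in NBTII, below the lower quartile of the array on 21 of 21 arrays. Igfbp4 read 5.99 to 6.44 in NBTII-FGFR1 and 5.99 to 6.28 in NBTII. Igfbp6 1372168_s_at read 6.25 to 6.81 in NBTII-FGFR1 and 6.61 to 7.0 in NBTII. Its lowest array was NBTII-FGFR1 0.5 h and its highest NBTII 48 h replicate 1, which was also the highest array of all 3 Igfbp5 probe sets.

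**Figure D4:**
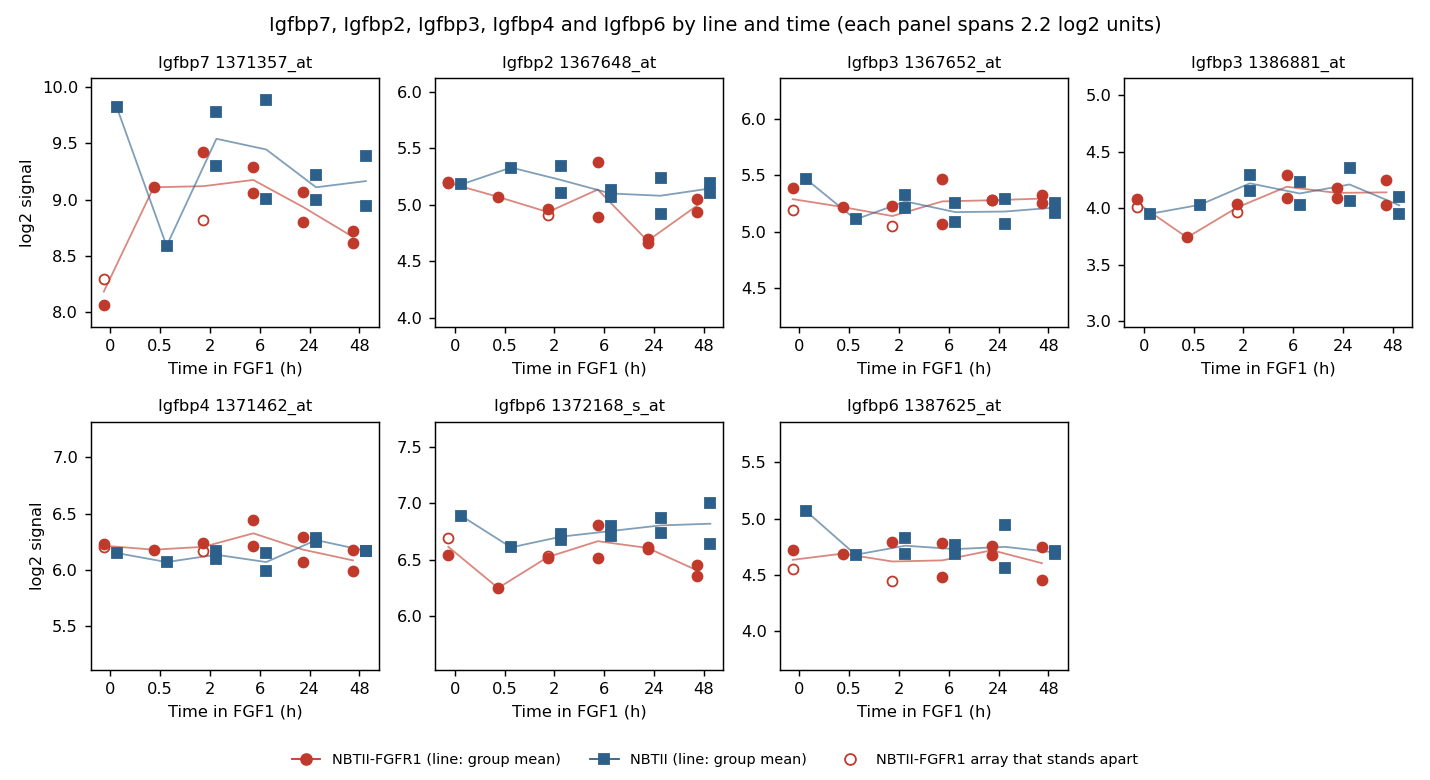
Log2 signal (vertical axis, 2.2 units in each panel) of the 7 probe sets of Igfbp7, Igfbp2, Igfbp3, Igfbp4 and Igfbp6 at each time in FGF1 in hours (horizontal axis). Points are arrays, lines join group means, and open circles are the 2 NBTII-FGFR1 arrays that stand apart. Igfbp7 in NBTII-FGFR1 is lowest at 0 h, at 8.30 and 8.07, and Igfbp4 stays between 5.99 and 6.44.

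The genes whose pattern was most like Igfbp5 1370960_at were found by Pearson's r over the 21 arrays among 7570 genes. They were Fxyd2, a regulator of the sodium pump (r = 0.91), Lcp1, which encodes the actin-bundling protein L-plastin (r = 0.90), and Nt5dc2 (r = 0.88). The arrays share the split by line, and within NBTII-FGFR1 (n = 11) the values were 0.78, 0.81 and 0.82, and within NBTII (n = 10) 0.46, 0.28 and 0.52. In the library labelled replicate 1 of NBTII-FGFR1 at 0 h, Fxyd2 read 6.43, Lcp1 5.43 and Nt5dc2 5.77. In 0 h replicate 2 they read 4.30, 4.75 and 4.85. For each of these genes, as for Igfbp5 1370960_at, that first library was the highest array of its line. The values within NBTII-FGFR1 thus lean on that library, and r without it was not computed. From 2 to 48 h Fxyd2 averaged 4.69 in NBTII-FGFR1 and 7.64 in NBTII. Spearman's rho ranked other genes first: Aopep (0.90), Mbtps1 (0.90) and Lbr (0.89). No other member varied enough between the groups for this comparison, which asked for an SD of at least 0.5 over group means.

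The ligands that IGFBPs bind were called in no comparison. Igf1 read 3.82 to 4.27 over the 21 arrays and Igf2 4.91 to 5.45. Igfals, which holds IGFs in a circulating complex with Igfbp3 or Igfbp5, read 3.71 to 4.15. Igfbp1, whose gene lies 3863 bases from Igfbp3, read 3.58 to 3.96. Neither of these passed in any comparison. Of the 24 measured genes of the IGF pathway (32 listed), 2 rose in NBTII-FGFR1 at 2 h against 0 h and 0 fell, and at 6 h 2 rose and 2 fell. Of all probe sets 9.35% were called in either direction at 2 h and 21.3% at 6 h, so neither count of pathway genes stood above the background. The risers at 2 h were Irs2, a docking protein of the insulin and IGF receptors (0.97 ± 0.23), and the transcription factor Foxo3 (0.83 ± 0.18). Both calls were lost without either array of 0 h, and Irs2 also without 2 h replicate 1 and Foxo3 without 2 h replicate 2. At 6 h Grb14, an adaptor that inhibits the insulin receptor, rose by 1.12 ± 0.17 and Foxo1 by 1.25 ± 0.22, while Igf2r, the receptor that clears IGF-II, changed by -0.62 ± 0.15 and the docking protein Gab1 by -0.84 ± 0.23. Grb14 and Foxo1 passed in all 18 fits that left out 1 array. Igf2r and Gab1 were lost without the library labelled replicate 1 of NBTII-FGFR1 at 0 h and without 6 h replicate 2, and Gab1 also without 0 h replicate 2. At 24 h 1 rose and 2 fell (6.3% of all probe sets called), namely Grb14 (0.83 ± 0.17), Gab1 (-1.33 ± 0.23) and Foxo3, which had been higher at 2 h (-0.70 ± 0.18, limma, adjusted p = 0.0361). At 48 h 2 rose and 1 fell (21.4% of all probe sets called), namely Grb14 (0.92 ± 0.17), the kinase Akt2 (0.40 ± 0.13) and Gab1 (-0.90 ± 0.23). Without the library labelled replicate 1 of NBTII-FGFR1 at 0 h, a recomputation of the gene lists added after the values were seen, 0 pathway genes were called at 2 h, Grb14 and Foxo1 at 6 h, Grb14 and Gab1 at 24 h, and Grb14 at 48 h. The Gab1 call at 24 h was lost without 24 h replicate 2, the Foxo3 call at 24 h without either array of 0, 24 or 48 h, and the Akt2 and Gab1 calls at 48 h without either array of 0 or 48 h. The median difference of the list was 0.07 at 2 h and -0.03 at 6 h, against -0.06 and 0.02 for all probe sets.

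Grb14 was called higher than at 0 h in NBTII-FGFR1 at 6, 24 and 48 h. The 6 and 48 h calls held in all 18 fits, and the 24 h call (adjusted p = 0.0104) was lost without 0 h replicate 2 and without 24 h replicate 2, where limma gave an adjusted p of 0.139 at most. It read 4.98 and 4.73 at 0 h, 4.90 at 0.5 h, 5.06 and 4.67 at 2 h, 5.78 and 6.17 at 6 h, 5.59 and 5.78 at 24 h, and 5.87 and 5.68 at 48 h. In NBTII all 10 arrays read 4.53 to 5.07. Between the lines over 2 to 48 h, 1 of the 24 pathway genes was higher in NBTII-FGFR1 and 1 lower, when 16.5% of all probe sets were called in either direction. They were Grb14 (0.64 ± 0.08, limma, adjusted p = 0.000232) and Igf1r, the receptor itself (-0.34 ± 0.10, adjusted p = 0.0342). The Igf1r call was lost in 9 of 18 fits that left out 1 array. At 48 h against 2 h in NBTII-FGFR1, 1 of the 24 was called higher and 4 lower, against 17.7% of all probe sets in either direction. Grb14 was higher by 0.91, while Irs2 changed by -1.40, Gab1 by -1.16, Pdpk1, a kinase that activates Akt, by -0.71 and Foxo3 by -0.87. The Pdpk1 call was lost without 2 h replicate 1 and without 48 h replicate 1. Foxo3 was also lower in NBTII at 48 h against 2 h (-0.84 ± 0.18, limma, adjusted p = 0.0146). It was the only pathway call there, where 5.02% of all probe sets were called. That call was lost without NBTII 2 h replicate 1 and without NBTII 48 h replicate 2. In NBTII the pathway calls against 0 h were Foxo3 at 2 h (1.03 ± 0.22), and Igf1r (0.97 ± 0.25), Igf2r (0.77 ± 0.19) and Foxo1 (1.13 ± 0.26) at 6 h, all higher. Foxo3 was lost without NBTII 2 h replicate 1, and the other 3 without NBTII 6 h replicate 1, Igf2r and Foxo1 also without 6 h replicate 2, and Igf1r also without either NBTII-FGFR1 array of 48 h. At 24 and 48 h 0 of 24 were called. The shares of all probe sets called in NBTII were 2.94%, 5.9%, 0.939% and 0.908% at 2, 6, 24 and 48 h.

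Genes that cut IGFBPs or control the cutting were measured for 13 of 19 listed. The list was chosen with earlier results of these data known, so counts from it are a description only. Between the lines over 2 to 48 h, 5 of 13 were higher in NBTII-FGFR1 and 0 lower, when 8.34% of all probe sets were called higher. Mmp3, the metalloproteinase stromelysin 1, differed by 4.37 ± 0.22, Mmp9, gelatinase B, by 1.76 ± 0.14 and Timp1, their inhibitor, by 0.45 ± 0.10. These 3 passed in all 18 fits that left out 1 array, while Stc2, an inhibitor of the pregnancy-associated plasma proteinases (0.34 ± 0.09), was lost without replicate 1 of 48 h of either line, and Adam9 (0.39 ± 0.12) in 11 of 18. The list's median was 0.26, against -0.03 for all probe sets.

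Mmp3 in NBTII-FGFR1 read 3.57 and 3.79 at 0 h, 4.21 at 0.5 h, 8.10 and 7.33 at 2 h, 10.34 and 10.20 at 6 h, 10.31 and 10.49 at 24 h, and 10.94 and 10.35 at 48 h. In NBTII it read 3.90 at 0 h, 3.91 at 0.5 h, 4.77 and 4.42 at 2 h, 5.46 and 6.21 at 6 h, 5.66 and 7.56 at 24 h, and 4.36 and 4.69 at 48 h. The highest NBTII array, 24 h replicate 2, was also the lowest NBTII array for Igfbp5 1370960_at. Mmp9 in NBTII-FGFR1 peaked at 6 h, at 8.75 and 8.35, against 3.66 and 3.69 at 0 h. The change in Mmp3 from 2 to 48 h differed between the lines by 3.0 ± 0.62 (limma, adjusted p = 0.0316), a call lost without any 1 of the 4 arrays of 48 h and without NBTII 2 h replicate 1.

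In NBTII-FGFR1 the processing genes called higher than at 0 h numbered 3 of 13 at 2 h, 3 at 6 h, 3 at 24 h and 5 at 48 h, with 0 lower. Of all probe sets 5.27%, 9.38%, 3.57% and 10.5% were called higher at those times. At 48 h they were Mmp3 (6.96 ± 0.44), Htra1, a secreted serine protease (1.47 ± 0.26), Mmp9 (1.42 ± 0.29), Ctsd, the protease cathepsin D (1.39 ± 0.18) and Stc2 (1.22 ± 0.18). Mmp9 at 48 h was lost without 48 h replicate 1. Without the library labelled replicate 1 of NBTII-FGFR1 at 0 h the counts were 3, 3, 1 and 5, and the genes lost at 24 h were Htra1 and Timp1. Mmp3 and Mmp9 were below the lower quartile on all 3 arrays of 0 h, where a lower level could not be resolved, so their differences from 0 h may understate the change. In NBTII the genes called higher numbered 1, 2, 1 and 0 at those times, with 0 lower, against 2.94%, 5.9%, 0.939% and 0.908% of all probe sets called in either direction. Timp1 at 2 h and Mmp3 at 6 h were lost there in 12 and 14 of 18 fits. Timp1 at 6 h was lost without NBTII 6 h replicate 1. Mmp3 at 24 h, the only call at that time, was 2.71 ± 0.54. It was lost without NBTII 24 h replicate 2, which left 1.76. At 48 h in NBTII, Stc2 differed from the single 0 h array by 0.92 ± 0.23 and Ctsd by 0.83 ± 0.22, and neither passed. At 48 h against 2 h, 4 of 13 were higher and 2 lower in NBTII-FGFR1, and 1 and 1 in NBTII. Of all probe sets 17.7% and 5.02% were called. Stc2 was higher in both lines (0.93 and 0.84) and Timp1 lower in both (-0.98 and -0.99). The NBTII calls on these were lost in 3 and 4 of 18 fits, and the NBTII-FGFR1 call on Stc2 in 1.

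RNA was measured for 10 genes whose proteins carry an IGFBP domain. The list held 19 names, with older and current names of some genes both counted. Ccn1, Ccn2, Esm1 and Igfbpl1 were below the lower quartile on all 3 arrays of 0 h, where a lower level could not be resolved. Ccn3, a matrix-associated member of the CCN family, was higher in NBTII-FGFR1 by 0.43 ± 0.10 over 2 to 48 h and passed in all 18 fits. It was the only one of the 10 called between the lines, where 16.5% of all probe sets were called, so the count did not stand above the background. In NBTII-FGFR1 against 0 h, 0 of 10 were called at 2 h, Ccn4 was lower at 6 h (-0.91 ± 0.31), Htra1 was higher at 24 h, and Ccn3 and Htra1 were higher at 48 h. Of all probe sets 9.35%, 21.3%, 6.3% and 21.4% were called at those times. The calls on Ccn4 and on Htra1 at 24 h were each lost in 11 of 18 fits, and that on Ccn3 at 48 h without either 48 h array and without the library that stands apart at 0 h. In NBTII 0 of 10 were called at 2, 6, 24 or 48 h (2.94%, 5.9%, 0.939% and 0.908% of all probe sets).

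**Figure D5:**
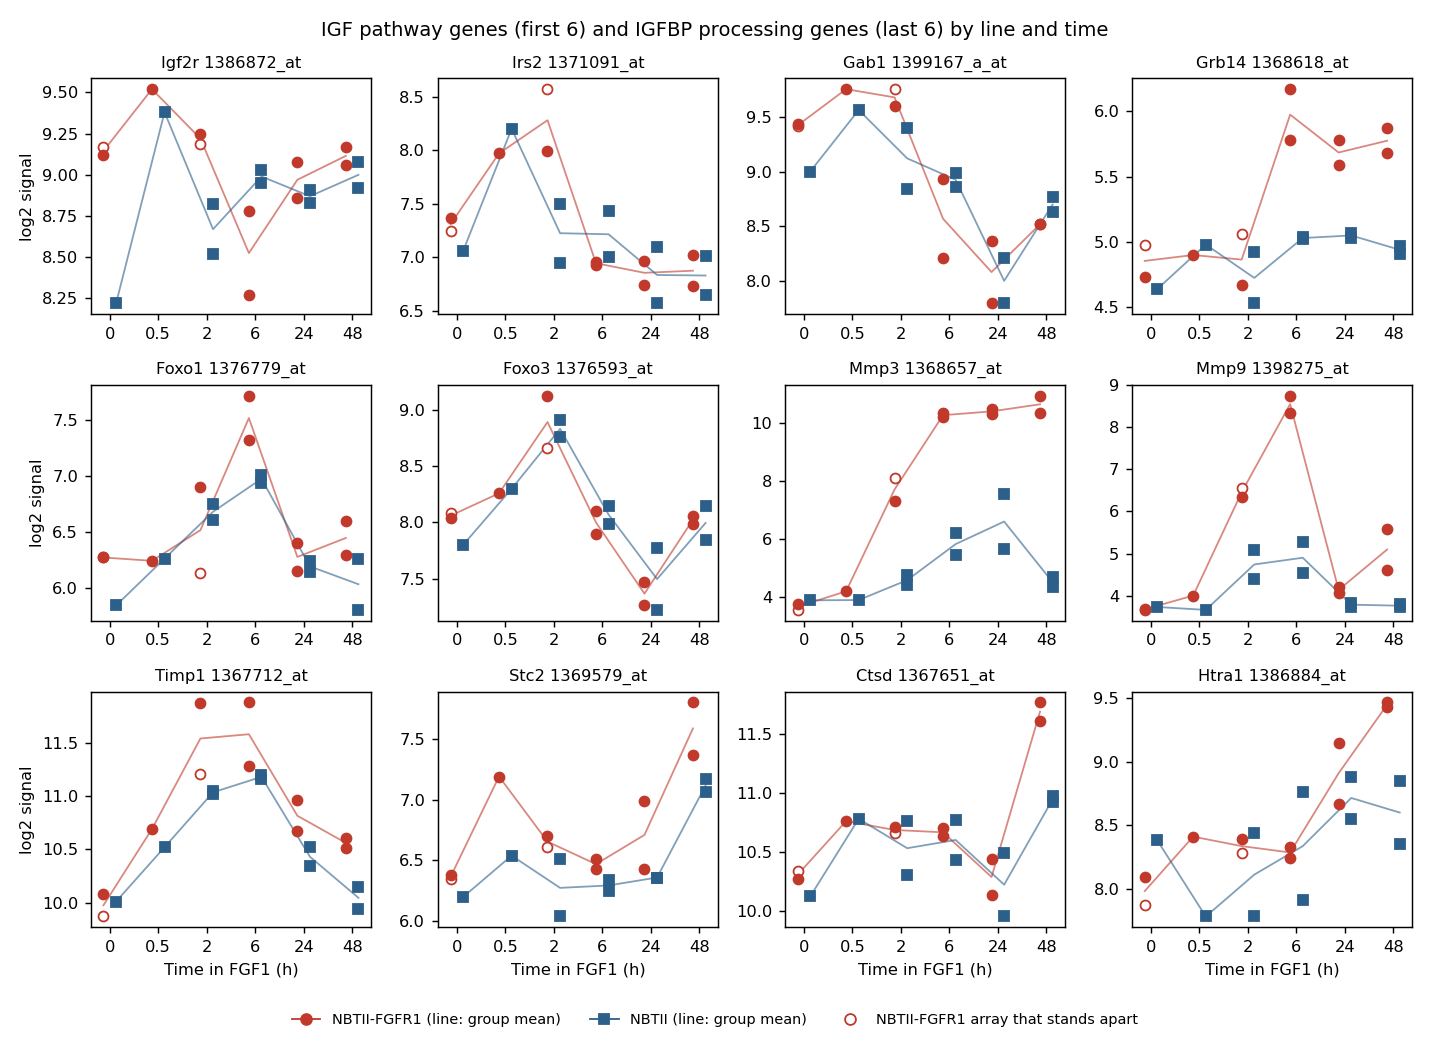
Log2 signal (vertical axis) of 6 IGF pathway genes and 6 IGFBP processing genes at each time in FGF1 in hours (horizontal axis). Points are arrays, lines join group means, and open circles are the 2 NBTII-FGFR1 arrays that stand apart. Mmp3 reaches 10.20 to 10.94 from 6 h in NBTII-FGFR1, against at most 7.56 in NBTII, and Grb14 reads 5.59 or more from 6 h in NBTII-FGFR1, against at most 5.07 in NBTII.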

How the data were processed

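Total RNA of rat NBTII and NBTII-FGFR1 cells was measured on 21 Affymetrix expression arrays. The deposited values are log2 intensities from RMA, run by the authors, as the submitters' processing notes state without a version. RMA quantile-normalizes arrays, so a shift shared by most genes would not show, and it gives no detection calls. The number of arrays limits the precision. The table has 15923 probe sets, of which 57 control probe sets were left out. No filter on low values was set for the remaining 15866. By the platform annotation 12783 carried 1 gene symbol, 312 several and 2771 none.

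Groups came from the sample titles. A linear model with 1 mean for each of the 12 groups was fitted in limma 3.58.1 (R 4.3.3; 9 residual and 5.68 prior degrees of freedom), with Benjamini-Hochberg adjustment over all probe sets of a comparison and a threshold of 0.05. A group with a single array takes its spread from the rest. The fit was checked on simulated data for some of the comparisons. Of planted changes of 1 log2 unit, 67% were recovered in the interaction, 73% in NBTII at 6 h and 99% between the lines. Of the calls, 2.66% to 7.57% were false, so the share exceeded the threshold of 0.05 in some comparisons. The members and gene lists were chosen with earlier results of these data known. A gene with several probe sets was represented by the one with the highest mean, and up to 6 genes per list with the widest range over group means were named; further genes were named after their values were seen, because they passed a test. Replicate numbers were not paired: replicate 1 deviations of the 9 groups with 2 arrays correlated at -0.13 to 0.35 (median 0.02, 15 of 36 pairs over 0.1). Promoter sequences are from RefSeq (GRCr8), which matched 6 of 6 members. Alternatives were a filter on low values, a replicate block, array weights, trended variances, repeated normalization, only the arrays compared, and leaving out arrays. No protein sequences and no raw image files were used here.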

Additional observations from a re-analysis of the deposited data

How the results depend on the processing

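The number of Igfbp probe sets called, the 2 Igfbp7 calls and the 10 differences between the lines were recomputed under each alternative. A replicate block changed no call. Igfbp7 then differed from 0 h by 0.94 at 2 h (limma, adjusted p = 0.0368). At 6 h it differed by 0.99 (limma, adjusted p = 0.0139). With the block 24 of 24 results kept their direction and side of the threshold. The same held with trended and robust variances, repeated quantile normalization and only the arrays of the lines compared. Leaving out both arrays that stand apart kept the direction of every difference and raised that of Igfbp7 at 2 h. This setting leaves 1 array at 0 h and at 2 h, and the choice of 2 h replicate 1 was not tested. Without 2 h replicate 1 alone the Igfbp7 difference at 2 h was 1.24, and without 2 h replicate 2 it was 0.64. With array weights the count of Igfbp probe sets called in NBTII-FGFR1 was 0 at 2 h, where Igfbp7 had an adjusted p of 0.109 in limma, and 1 at 24 h, where Igfbp2 passed. With probe sets below the median left out, 12 IGF pathway genes could be tested between the lines and 1 was called, since Grb14 was among those left out. Leaving out single arrays gave 0 to 1 Igfbp probe sets called in NBTII-FGFR1 at 2, 6, 24 and 48 h against 0 h, 0 to 0 in the other tested comparisons of members, and 1 to 2 pathway genes between the lines. The Igfbp7 difference ran from 0.64 to 1.24 at 2 h and from 0.88 to 1.11 at 6 h, and that of Igfbp5 1370960_at between the lines from -3.79 to -3.06. The mean of the 3 Igfbp5 probe sets gave -1.90 between the lines. The causes of these changes were not tested beyond the filter. Signal near or below the lower quartile limits Igfbp5 in NBTII-FGFR1, the second Igfbp3 probe set, and Mmp3 and Mmp9 at 0 h, where a lower level could not be resolved.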
